A study of Homo sapiens with 12 samples.

Results

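The 42 genes described here are interferon-stimulated genes, taken from a list of symbols and matched by gene identifier to the deposited count table of 63677 genes. The rule uses no measured value, though the list was chosen with earlier results of these data known. Of the 42, 38 had enough counts to be tested, among 16287 tested genes in all. The other 4 were close to silent in this material: OASL had 1 count over all libraries, IFI44L 11 counts, OAS1 33 counts and TRIM22 47 counts. RNA was sequenced from HPB-ALL, a human line of T-cell acute lymphoblastic leukaemia (T-ALL), infected with lentiviruses for inducible expression, drug-selected, and given doxycycline to switch the transgene on or DMSO, the vehicle. The line labelled T5 carried TAL1, a basic helix-loop-helix transcription factor, L4 carried LMO1, a LIM-domain bridging protein, and C25 carried both (TAL1/LMO1). All 6 groups thus share the HPB-ALL background, the lentiviral infection and the selection, and each was sequenced as 2 libraries (n = 2 per group). The sources used here do not state the dose and duration of doxycycline, whether a line is 1 clone, or whether replicates were separate cultures. All 12 libraries come from lines with a transgene, so an effect of doxycycline itself cannot be told apart from that of the transgene.

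Type I interferons signal through the receptor chains IFNAR1 and IFNAR2 to the kinases JAK1 and TYK2, which phosphorylate STAT proteins, STAT2 among them. STAT2 and IRF9 are parts of the complex ISGF3, which binds the interferon-stimulated response element (ISRE), whereas type II interferon acts through the gamma-activated site (GAS). The products of the induced genes sense viral RNA, bind or degrade it, restrain viral entry and replication, or act back on the pathway. In leukaemic and other transformed cells many of these genes are also transcribed to some level with no interferon added.

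Promoter sequences from RefSeq (GRCh38.p14) are shown for 6 members whose levels moved in different directions in the TAL1/LMO1 line, so that the elements near their start sites can be read beside the values that follow. Each runs 5′ to 3′ on the gene's strand from 200 bases before to 10 bases after the annotated start, with matches to the ISRE core GAAANNGAAA or the GAS core TTCNNNGAA on either strand in capitals. EPSTI1, the member with the largest rise, lies at chr13:42992232-42992441 on the minus strand, and its capitals hold a GAS match that overlaps an ISRE match.
EPSTI1: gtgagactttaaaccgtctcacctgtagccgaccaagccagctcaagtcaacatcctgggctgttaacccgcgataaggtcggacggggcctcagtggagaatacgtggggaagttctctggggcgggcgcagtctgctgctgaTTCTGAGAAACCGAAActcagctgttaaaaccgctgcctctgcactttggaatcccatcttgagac
RSAD2, the member with the second largest rise, has 2 annotated starts, and the window of 1 of them is shown. It is chr2:6877577-6877786 on the plus strand, and its ISRE match reads on the other strand.
RSAD2: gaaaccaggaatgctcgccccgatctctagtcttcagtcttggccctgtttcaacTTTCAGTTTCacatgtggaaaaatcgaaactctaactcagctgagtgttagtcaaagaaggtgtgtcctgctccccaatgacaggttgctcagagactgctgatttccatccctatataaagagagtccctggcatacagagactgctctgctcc
IRF9, a rising subunit of ISGF3, has a GAS match and no ISRE match in chr14:24161065-24161274 on the plus strand.
IRF9: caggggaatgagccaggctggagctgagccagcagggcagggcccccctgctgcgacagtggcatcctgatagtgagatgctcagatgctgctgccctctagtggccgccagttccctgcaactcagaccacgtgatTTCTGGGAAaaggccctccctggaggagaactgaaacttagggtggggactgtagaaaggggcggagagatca
The remaining sequences belong to members that fell. IFI6 has 3 ISRE matches in chr1:27672183-27672392 on the minus strand.
IFI6: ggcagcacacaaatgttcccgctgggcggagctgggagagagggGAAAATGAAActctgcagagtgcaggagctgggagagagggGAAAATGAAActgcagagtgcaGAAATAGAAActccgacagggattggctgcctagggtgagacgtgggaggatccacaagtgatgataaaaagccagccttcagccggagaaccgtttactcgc
EIF2AK2 has 1 ISRE match at its start, in chr2:37156971-37157180 on the minus strand.
EIF2AK2: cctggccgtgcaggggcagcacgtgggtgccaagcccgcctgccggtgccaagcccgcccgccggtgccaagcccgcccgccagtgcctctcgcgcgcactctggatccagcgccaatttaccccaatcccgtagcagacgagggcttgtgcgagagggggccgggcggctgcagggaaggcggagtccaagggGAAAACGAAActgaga
DTX3L likewise has 1 at its start, in chr3:122564138-122564347 on the plus strand.
DTX3L: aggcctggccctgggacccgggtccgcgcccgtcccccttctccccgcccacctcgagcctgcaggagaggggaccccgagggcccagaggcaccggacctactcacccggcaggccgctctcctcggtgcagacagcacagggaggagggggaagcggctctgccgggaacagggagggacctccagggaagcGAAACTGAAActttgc

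Over the longer window from 250 bases before to 50 bases after the start, 34 of the 42 members had a RefSeq promoter (DDX58 under its current symbol RIGI). An ISRE match was present in 21 of these 34 members (61.8%) and in 4.38% of all genes, or 3.57% of 35116 windows of that length. A GAS match was present in 11 of the 34 (32.4%) and in 9.38% of all genes, or 7.66% of windows. Split by the change in the TAL1/LMO1 line, an ISRE match was found in 7 of 15 matched members that rose, in 7 of 9 that fell and in 6 of 8 tested members that were not called. A GAS match was found in 7 of the 15 that rose, 1 of the 9 that fell and 2 of the 8 that were not called. ISRE matches thus stood in front of members of all 3 kinds. These are matches of letters in a short window, and some genes had up to 3 windows, any of which could hold the match.

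The libraries held between 14865073 and 15917713 counts, and levels are given in CPM, counts scaled to the library size, which was corrected by the trimmed mean of M-values. A count of 3 in a library, which is the upper limit a count of 0 allows, equals at most 0.198 CPM and covers counting error only. The induced genes matched the labels: with doxycycline TAL1 averaged 39.2 CPM in the TAL1 line and 900 CPM in the TAL1/LMO1 line, and LMO1 averaged 226 CPM in the LMO1 line and 1539 CPM in the TAL1/LMO1 line. The lines therefore differ in transgene level as well as in transgene identity, and these cannot be told apart. With doxycycline against DMSO, the authors' deposited tables give TAL1 a log2 fold change of 3.30 in the TAL1 line and 7.43 in the TAL1/LMO1 line. For LMO1 they give 6.31 in the LMO1 line and 8.71 in the TAL1/LMO1 line. The part of any transgene RNA present with DMSO in the results, the DMSO comparisons included, was not tested. All 6 T-lineage markers were tested, and their summed level was 1591 to 1795 CPM in the other groups and 1328 to 1389 CPM in the TAL1/LMO1 line with doxycycline. The sum hides opposite changes: in that line 2 of the 6 rose and 4 fell with doxycycline (log2 -2.10 to 0.88). Of all tested genes 28.5% rose and 31.7% fell there. Between the TAL1 and LMO1 lines with DMSO, the 6 markers differed by -0.96 to 6.79 on the log2 scale. Summed B cell markers were 3.69 to 6.63 CPM in the other groups and 9.34 to 10.3 CPM in the TAL1/LMO1 line with doxycycline, with MS4A1 at 0 counts in all libraries. The 2 tested B cell markers changed by 1.06 (called) and -1.10 (not called) on the log2 scale in that line. Summed myeloid markers were 0.634 to 3.48 CPM, with FCGR3A at 0, and stromal and epithelial markers did not exceed 0.369 CPM, with PECAM1 and EPCAM at 0. The part of these marker levels in the results was not tested. With DMSO, 7 genes were at or above 50 CPM in the LMO1 line and under 1 CPM in the TAL1 line. Their median level in the TAL1 line with doxycycline was 1.61% and 0.573% of the LMO1 level in replicates 1 and 2. With DMSO it was 0.0658% and 0. The genes were chosen for a low DMSO level in the TAL1 line, which holds these DMSO values low, so the contrast with doxycycline cannot be read as an effect. The part of these levels in the results was not tested either. Fewer cells expressing a gene and less of its RNA per cell cannot be told apart in these bulk libraries.

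With doxycycline, the TAL1/LMO1 line moved 30 of the 38 tested members, in both directions. In that comparison 20 members rose, 10 fell and 8 were not called at an adjusted p under 0.05. Of all genes tested in this line, 60.2% were called, 28.5% higher and 31.7% lower, against 52.6% of the members higher and 26.3% lower. The median log2 fold change was 0.32 over the members and -0.01 over all tested genes. Among the members the rises were the larger changes: 8 rose by at least 1 on the log2 scale, where 1 unit is a doubling, and 1 fell by as much. The share of all tested genes that changed by as much was not computed, so this split cannot be called particular to the members. EPSTI1 and RSAD2 were at the top, USP18 and IFIT3 at the bottom. The authors' deposited table for this line calls 17 members higher and 7 lower of the 39 that have an adjusted p there.

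**Figure D1:**
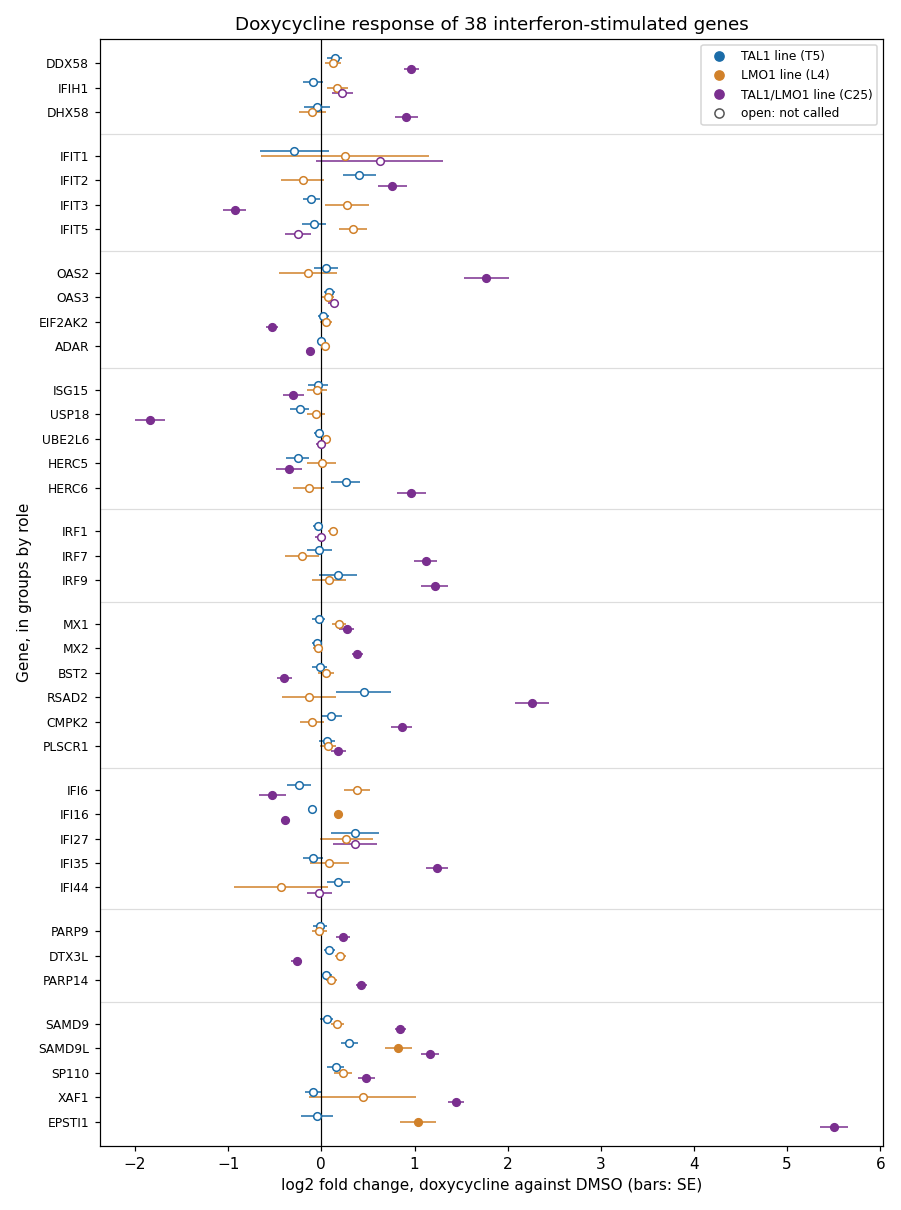
Log2 fold change of the 38 tested interferon-stimulated genes with doxycycline against DMSO in the TAL1, LMO1 and TAL1/LMO1 lines (horizontal axis; bars are the SE), grouped by role on the vertical axis; filled points were called at an adjusted p under 0.05. The TAL1/LMO1 points spread from -1.84 (USP18) to 5.50 (EPSTI1), whereas all 38 points of the TAL1 line lie between -0.29 and 0.45.

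EPSTI1, an interferon-responsive gene first described in epithelial cells next to stroma, changed the most of all members. In the TAL1/LMO1 line it was at 2.57 and 3.80 CPM with DMSO and at 145 and 144 CPM with doxycycline. It was at 5.37 and 4.40 CPM with DMSO and 4.06 and 5.39 CPM with doxycycline in the TAL1 line, and at 2.95 and 2.54, then 5.41 and 5.85 CPM, in the LMO1 line. The 2 TAL1/LMO1 doxycycline libraries were thus far above the other 10, which all lay at or below 5.85 CPM. The fold was 45.4 (log2 5.50, SE 0.15, adjusted p = 6.8e-56, edgeR quasi-likelihood test), and the authors' deposited table gives 5.50 (SE 0.17).

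Among the cytosolic sensors of viral RNA, DDX58 (RIG-I) and DHX58 (LGP2) rose in the TAL1/LMO1 line and IFIH1 (MDA5) was not called. DDX58 was at 26.7 and 23.2 CPM with DMSO and 47.3 and 50.2 CPM with doxycycline, whereas the TAL1 line was at 30.4, 32.2, 35.0 and 34.2 CPM and the LMO1 line at 23.6, 24.2, 27.4 and 24.8 CPM in the same order of DMSO, then doxycycline. The change was 0.96 on the log2 scale (SE 0.08, adjusted p = 3.6e-18). DHX58, a regulator of the other sensors, went from 7.95 and 10.1 CPM to 16.9 and 17.1 CPM (log2 0.91, SE 0.13, adjusted p = 1.6e-09), and the 8 libraries of the single lines were between 8 and 11.2 CPM. IFIH1 was at 12.7 and 14.0 CPM with DMSO and 17.1 and 14.2 CPM with doxycycline, a log2 difference of 0.23 (SE 0.11, adjusted p = 0.069). It passed with library totals (0.32, adjusted p = 0.0085) and without doxycycline replicate 2 (0.34, adjusted p = 0.019).

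The genes of the IFIT family, which includes RNA-binding proteins, did not move together. IFIT2 rose, from 6.09 and 4.89 CPM to 9.01 and 9.64 CPM (log2 0.76, SE 0.15, adjusted p = 1.5e-05). Its direct neighbour IFIT3 fell, from 13.5 and 16.6 CPM to 8.01 and 7.80 CPM (log2 -0.93, SE 0.12, adjusted p = 7.2e-10). For both genes the libraries of the 2 treatments did not overlap. The share of all tested genes without overlap was not computed, so this adds nothing to the calls. IFIT3 was at 25.2 to 29.3 CPM in the 4 libraries of the TAL1 line and 2.16 to 3.23 CPM in those of the LMO1 line, so the TAL1/LMO1 line lay between them under either treatment. IFIT5 (11.5 and 9.33, then 7.76 and 9.70 CPM) and IFIT1 (0.192 and 0.322, then 0.186 and 0.614 CPM) were not called, and IFIT1 was near the counting limit in this line. IFIT5 passed without DMSO replicate 2 (-0.41, adjusted p = 0.03) or doxycycline replicate 2 (-0.44, adjusted p = 0.021).

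OAS enzymes make 2′-5′ oligoadenylate from ATP when they meet double-stranded RNA. OAS2 rose in the TAL1/LMO1 line, from 1.99 and 1.42 CPM to 6.09 and 5.59 CPM (log2 1.77, SE 0.25, adjusted p = 1.5e-08), and still stayed below the TAL1 line, where its 4 libraries were at 14.6 to 16.1 CPM. OAS3, which lies beside it, was at 61.6 and 63.0 CPM and then at 67.0 and 69.4 CPM, a difference of 0.13 (SE 0.06, adjusted p = 0.069). OAS3 passed with library totals (0.23, adjusted p = 0.0013) and under size factors from DESeq2 (0.15, adjusted p = 0.044). EIF2AK2 (PKR), a kinase that halts translation on binding double-stranded RNA, fell from 68.5 and 62.5 CPM to 45.2 and 45.5 CPM. The 8 libraries of the single lines were at 70.7 to 80.9 CPM, and the log2 fold change was -0.53 (SE 0.07, adjusted p = 6.7e-11). ADAR, which deaminates adenosines in double-stranded RNA, fell slightly, from 793 and 790 CPM to 717 and 737 CPM (log2 -0.12, SE 0.04, adjusted p = 0.0091). With library totals in place of the trimmed-mean scaling, ADAR was at -0.03 and not called (adjusted p = 0.61).

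ISG15 is a ubiquitin-like protein that UBE2L6 (the conjugating enzyme) and HERC5 (a ligase) attach to targets and that USP18 removes. USP18, which also binds IFNAR2 and restrains the receptor, had the largest fall among the members. It was at 11.1 and 11.7 CPM with DMSO and 3.48 and 2.89 CPM with doxycycline in the TAL1/LMO1 line. The TAL1 line was at 19.6 and 19.7, then 17.0 and 16.4 CPM, and the LMO1 line at 24.2 and 20.3, then 21.8 and 20.9 CPM. The TAL1/LMO1 line was therefore lowest with DMSO already, and its doxycycline libraries were lowest of all, 3.57-fold below DMSO (log2 -1.84, SE 0.16, adjusted p = 2.4e-17). ISG15 itself went from 14.0 and 14.7 CPM to 11.9 and 11.5 CPM (log2 -0.30, SE 0.11, adjusted p = 0.016), and HERC5 from 10.9 and 9.85 CPM to 8.82 and 7.49 CPM (log2 -0.35, SE 0.14, adjusted p = 0.022). Both of these small falls lost the call with library totals (adjusted p = 0.11 and 0.10) and with DESeq2 (0.11 and 0.16). ISG15 also lost it without replicate 2 of either treatment (adjusted p = 0.085 and 0.061), and HERC5 without DMSO replicate 1 (0.16) or doxycycline replicate 2 (0.19). UBE2L6 was at 146 and 147 CPM and then 148 and 145 CPM and was not called (adjusted p = 0.95). HERC6, the gene next to HERC5, rose from 5.07 and 4.38 CPM to 8.76 and 9.70 CPM (log2 0.97, SE 0.16, adjusted p = 2e-07).

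Of the 3 interferon regulatory factors on the list, IRF7 and IRF9 rose and IRF1 was not called. IRF9, the DNA-binding subunit of ISGF3, was at 4.94 and 5.28 CPM with DMSO and 12 and 11.8 CPM with doxycycline, while the TAL1 line stayed at 3.34 to 3.99 CPM and the LMO1 line at 4.32 to 5.28 CPM. Its log2 fold change was 1.22 (SE 0.15, adjusted p = 2.6e-11). IRF7, which drives type I interferon genes, went from 7.95 and 7.98 CPM to 17.4 and 17.3 CPM (log2 1.12, SE 0.13, adjusted p = 1.7e-12). The 4 TAL1-line libraries of IRF7 were at 8.06 to 10.5 CPM and the 4 LMO1-line libraries at 4.42 to 5.93 CPM, so the TAL1/LMO1 doxycycline libraries exceeded all others. IRF1 was at 91.6 and 103 CPM, then 96.5 and 96.7 CPM, with overlapping libraries (log2 -0.01, SE 0.06, adjusted p = 0.91).

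Effectors that act at membranes or on nucleotides mostly rose. RSAD2 (viperin), a radical SAM enzyme that makes a chain-terminating nucleotide, was at 1.86 and 2.96 CPM with DMSO and at 11.7 and 11.4 CPM with doxycycline. It was at 1.38 to 2.09 CPM in the TAL1 line and at 1.69 to 2.02 CPM in the LMO1 line, so again the 2 TAL1/LMO1 doxycycline libraries stood above the other 10. The rise was 4.78-fold (log2 2.26, SE 0.18, adjusted p = 2.3e-18). CMPK2, a nucleotide kinase on the opposite strand, went from 11.7 and 10.5 CPM to 18.5 and 21.7 CPM (log2 0.86, SE 0.11, adjusted p = 2.8e-10). The nearest annotated starts of CMPK2 and RSAD2 lie 22 bases apart, and that RSAD2 start is not the one whose window is shown above. MX2, a GTPase that blocks retroviral nuclear import, rose from 85.3 and 86.8 CPM to 111 and 114 CPM (log2 0.39, adjusted p = 1.3e-08). Its neighbour MX1 rose from 34.6 and 33.7 CPM to 40.6 and 41.8 CPM (log2 0.27, adjusted p = 0.0017). BST2 (tetherin), which holds budding virions on the cell, fell from 34.6 and 37.3 CPM to 26.5 and 28.1 CPM (log2 -0.40, adjusted p = 2.1e-05). PLSCR1, a scramblase family protein, was called at the edge of the threshold (29.5 and 31.5, then 36.2 and 32.9 CPM, log2 0.18), and the call was lost without either DMSO library (adjusted p = 0.32 and 0.07) or the first doxycycline library (0.43), with no filter on low counts (0.22) and with DESeq2 (0.19).

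**Figure D2:**
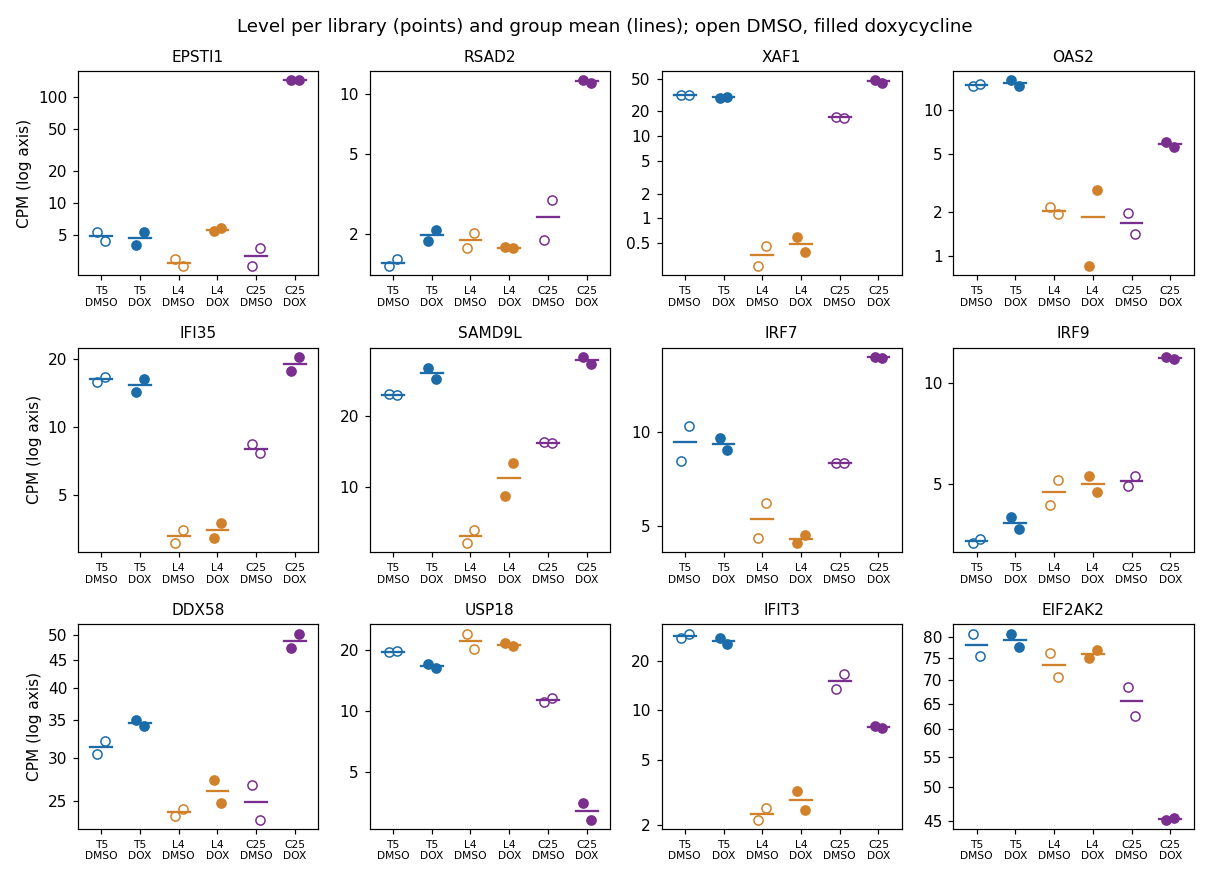
Level in CPM (log axis, its range set for each gene) of 12 interferon-stimulated genes in each of the 12 libraries; points are libraries, open with DMSO and filled with doxycycline, and lines are group means of n = 2. For EPSTI1, RSAD2, IRF7 and IRF9 both TAL1/LMO1 doxycycline points sit above all other libraries, and for USP18 and EIF2AK2 they sit below all others.

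The genes named IFI for their induction by interferon share a name more than a function, and they split. IFI35, a leucine-zipper protein, rose from 8.40 and 7.66 CPM to 17.6 and 20.4 CPM (log2 1.24, SE 0.12, adjusted p = 6e-15). IFI16, a nuclear DNA sensor, fell from 541 and 555 CPM to 441 and 398 CPM (log2 -0.39, SE 0.05, adjusted p = 1.3e-11). IFI6, a small membrane protein, fell from 8.34 and 9.98 CPM to 5.96 and 6.76 CPM (log2 -0.52, SE 0.15, adjusted p = 0.0017), a call that was lost without DMSO replicate 2 (adjusted p = 0.06). IFI27 (2.89 and 2.25, then 3.35 and 3.26 CPM) and IFI44 (9.68 and 9.78, then 10.5 and 8.66 CPM) were not called.

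PARP9 and DTX3L form a complex that ADP-ribosylates and ubiquitinates, and their nearest annotated start sites lie 38 bases apart on opposite strands. They changed in opposite directions by similar small amounts. PARP9 went from 34.9 and 36.6 CPM to 39.9 and 44.3 CPM (log2 0.24, SE 0.07, adjusted p = 0.0046), and DTX3L from 90.4 and 86.0 CPM to 70.6 and 76.3 CPM (log2 -0.26, SE 0.06, adjusted p = 0.00011, and -0.17 with library totals). The rise of PARP9 was lost without DMSO replicate 1 (adjusted p = 0.076) or doxycycline replicate 2 (0.17), and the sources used here do not state whether counting used the strand, so reads where genes overlap cannot be assigned with certainty. PARP14, a further ADP-ribosyltransferase of the same chromosomal group, rose from 72.8 and 72.7 CPM to 104 and 91.6 CPM (log2 0.43, SE 0.06, adjusted p = 3.5e-09).

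All 5 tested members of the remaining group rose in the TAL1/LMO1 line, among them EPSTI1, beside 28.5% of all tested genes. This group collects restriction factors and members placed in no other group, and its further member TRIM22 was not tested. XAF1, a pro-apoptotic antagonist of XIAP, was at 17.3 and 16.5 CPM with DMSO and 48.0 and 44.4 CPM with doxycycline (log2 1.45, SE 0.09, adjusted p = 1.6e-25). The TAL1 line held XAF1 at 31.1 and 31.8, then 29.3 and 29.8 CPM, whereas the LMO1 line had almost none, at 0.262 and 0.456, then 0.594 and 0.390 CPM. SAMD9 and SAMD9L, adjacent paralogs that restrain translation and growth, rose together. SAMD9 went from 57.8 and 57.1 CPM to 108 and 98.8 CPM (log2 0.85, SE 0.06, adjusted p = 1.6e-20), and SAMD9L from 15.5 and 15.4 CPM to 35.8 and 33.5 CPM (log2 1.17, SE 0.09, adjusted p = 2.7e-18). SP110, a nuclear body protein, rose from 19.9 and 21.8 CPM to 28.9 and 29.5 CPM (log2 0.48, adjusted p = 1.7e-06).

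In the LMO1 line, 3 members rose and 0 fell with doxycycline, at a background of 2.14% of all tested genes called, 1.18% higher and 0.964% lower. The median log2 fold change was 0.08 over the members and 0.00 over all genes. SAMD9L was at 5.76 and 6.52 CPM with DMSO and at 9.17 and 12.6 CPM with doxycycline (log2 0.83, SE 0.14, adjusted p = 3.8e-05). EPSTI1, whose values are given above, rose by 1.03 (SE 0.19, adjusted p = 0.00018). IFI16 was at 606 and 571 CPM and then at 669 and 667 CPM (log2 0.18, SE 0.05, adjusted p = 0.013). At an unadjusted p under 0.05, 10 members passed. The share of all tested genes at that threshold was not computed, so this count has no background beside it. Without doxycycline replicate 2, EPSTI1 alone was called and SAMD9L was at 0.58 (adjusted p = 0.099), and IFI16 was not called without either doxycycline library (0.12 and 0.10) or without DMSO replicate 2 (0.29). DTX3L, which was not called (log2 0.20, adjusted p = 0.05), passed without DMSO replicate 1 (0.31, adjusted p = 0.0039) and with library totals (adjusted p = 0.03).

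In the TAL1 line, 0 of the 38 members were called in either direction by edgeR, and 0 of the 7 to which DESeq2 gave an adjusted p, where 1.84% of all tested genes were called, 0.982% higher and 0.853% lower. At an unadjusted p under 0.05, 5 members passed, again without a computed share of all tested genes at that threshold. The smallest adjusted p, 0.066, belonged to SAMD9L, which was at 24.9 and 24.6 CPM with DMSO and 32.1 and 28.8 CPM with doxycycline (log2 0.30, SE 0.09). USP18 was at -0.23 (SE 0.10) and IFIT2 at 0.41 (SE 0.18), both with an adjusted p of 0.30. The median over the members was -0.02, beside 0.00 over all genes.

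The doxycycline responses were also compared between lines, by testing the difference of log2 fold changes. The TAL1/LMO1 response exceeded the TAL1 response for 18 members and was below it for 6, where 43.8% of all tested genes were called, 18.4% above and 25.4% below. It exceeded the LMO1 response for 15 members and was below it for 9, where the background was 45.4%, with 19.1% above and 26.4% below. Both comparisons use the same TAL1/LMO1 libraries, so they are not independent. EPSTI1 differed most, by 5.55 (SE 0.24) from the TAL1 line and 4.47 (SE 0.28) from the LMO1 line. USP18 differed most in the other direction, by -1.60 (SE 0.19) and -1.78 (SE 0.19). XAF1 (1.54, SE 0.12) and IFI35 (1.33, SE 0.16) were among the remaining differences from the TAL1 line, and RSAD2 (2.39, SE 0.35) and IRF7 (1.33, SE 0.22) among those from the LMO1 line. DDX58 differed by 0.82 and 0.84, SAMD9 by 0.79 and 0.68, EIF2AK2 by -0.55 and -0.58, DTX3L by -0.35 and -0.47, IFIT3 by -0.82 and -1.21, and IFI16 by -0.29 and -0.57. The TAL1 and LMO1 responses differed from each other for 2 members, both lower in the TAL1 line, at a background of 0.939% called, 0.387% higher and 0.553% lower. These were EPSTI1 (-1.08, SE 0.26, adjusted p = 0.014) and IFI16 (-0.28, SE 0.06, adjusted p = 0.0064). The EPSTI1 difference lost its call without DMSO replicate 1 (adjusted p = 0.21) or doxycycline replicate 1 (0.16) of the TAL1 line, or without DMSO replicate 2 (0.10) or doxycycline replicate 2 (0.10) of the LMO1 line. The IFI16 difference lost it without doxycycline replicate 2 of the TAL1 line (0.053) or DMSO replicate 2 of the LMO1 line (0.074).

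With DMSO alone, the lines already held these genes at different levels. The TAL1 line was above the LMO1 line for 25 of the 38 members and below it for 3, where 36.4% of all tested genes were called, 18.5% higher and 17.8% lower, and the median difference was 0.40 over the members and 0.00 over all genes. XAF1 had the largest difference, with 31.1 and 31.8 CPM in the TAL1 line and 0.262 and 0.456 CPM in the LMO1 line, an 85.6-fold difference (log2 6.42, SE 0.44, adjusted p = 2.5e-42). IFI44, a cytosolic protein, was at 11.9 and 11.6 CPM against 0.720 and 0.521 CPM (log2 4.23, SE 0.34, adjusted p = 2.8e-26). Both genes had few counts in the LMO1 line, so the sizes of these differences are imprecise. Without single libraries the log2 difference ranged from 6.08 to 6.86 for XAF1 and from 4.01 to 4.47 for IFI44. IFIT3 was at 27.5 and 29.3 CPM against 2.16 and 2.54 CPM (log2 3.59, SE 0.18, adjusted p = 1.6e-34). SAMD9L (24.9 and 24.6 against 5.76 and 6.52 CPM, log2 2.01, SE 0.12) and IRF1 (193 and 195 against 104 and 110 CPM, log2 0.85, SE 0.05) were also higher. These genes were named for the smallest p, not for size: 7 members were higher by at least 1 on the log2 scale. OAS2, for example, differed by more than SAMD9L (14.6 and 15.1 against 2.16 and 1.96 CPM, log2 2.85). The 3 members that were lower in the TAL1 line differed little: IRF9 by -0.48, IFI16 by -0.17 and ADAR by -0.14. Each of these 3 lost its call when 1 library was left out, IRF9 without DMSO replicate 1 (adjusted p = 0.16) or 2 (0.12) of the TAL1 line or DMSO replicate 2 of the LMO1 line (0.31) and also with DESeq2 (0.20), ADAR without DMSO replicate 2 of the TAL1 line (0.081) and IFI16 without DMSO replicate 1 of the LMO1 line (0.085).

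**Figure D3:**
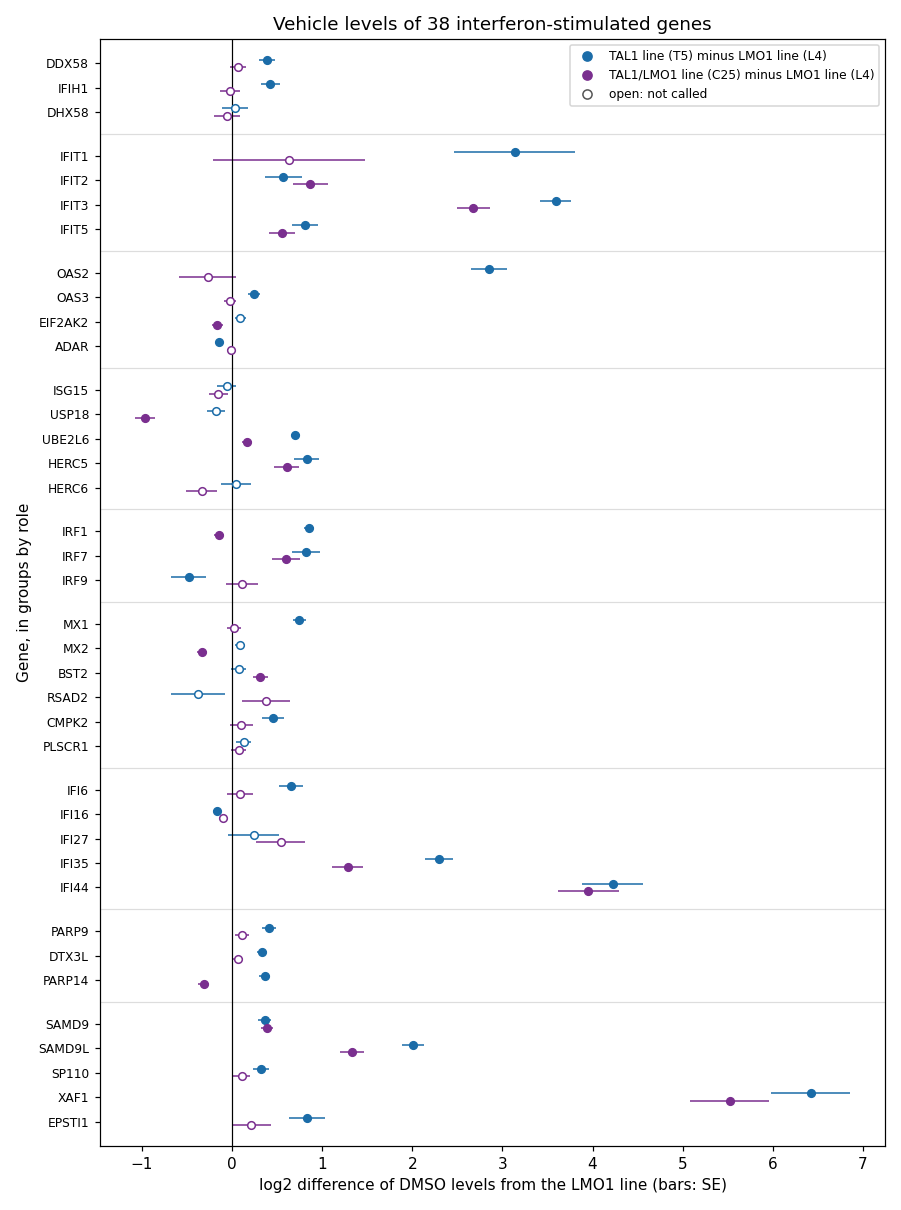
Difference in the DMSO level of the 38 tested interferon-stimulated genes from the LMO1 line, in log2 units (horizontal axis; bars are the SE), for the TAL1 and the TAL1/LMO1 line; genes are grouped by role on the vertical axis and filled points were called. XAF1, IFI44 and IFIT3 lie far to the right in both lines, at 6.42, 4.23 and 3.59 for the TAL1 line and at 5.52, 3.95 and 2.68 for the TAL1/LMO1 line.

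The TAL1/LMO1 line with DMSO lay below the TAL1 line for 22 members and above it for 4, where 45.4% of all tested genes were called, 23.0% lower and 22.4% higher, with a median of -0.29. OAS2 was the most different, at 1.99 and 1.42 CPM against 14.6 and 15.1 CPM (log2 -3.12, SE 0.21, adjusted p = 1.8e-18). IRF1 (91.6 and 103 against 193 and 195 CPM, log2 -0.999, SE 0.05), XAF1 (-0.90, SE 0.09), PARP14 (-0.67, SE 0.06) and UBE2L6 (-0.54, SE 0.05) were also lower. The 4 higher members were RSAD2 (0.75), IRF9 (0.59), BST2 (0.24) and ADAR (0.13). All 4 of these calls were lost without DMSO replicate 2 of the TAL1/LMO1 line, and RSAD2 was then at 0.37 (adjusted p = 0.46). RSAD2 (adjusted p = 0.12), IRF9 (0.053) and BST2 (0.11) lost the call without replicate 1 of the TAL1 line, and RSAD2 (0.073) and ADAR (0.12) without its replicate 2. ADAR also lost it without replicate 1 of the TAL1/LMO1 line (adjusted p = 0.064), and DESeq2 called ADAR alone of the 4. Against the LMO1 line, the TAL1/LMO1 line with DMSO was higher for 12 members and lower for 5, where 41.0% of all tested genes were called, 20.4% higher and 20.6% lower, with a median of 0.10. XAF1 (17.3 and 16.5 against 0.262 and 0.456 CPM, log2 5.52, SE 0.44), IFI44 (log2 3.95), IFIT3 (2.68), SAMD9L (1.33) and IFI35 (1.28) were higher. USP18 (-0.97, SE 0.11), MX2 (-0.33), PARP14 (-0.32), EIF2AK2 (-0.16) and IRF1 (-0.14) were lower, and the last pair lost their calls when single DMSO libraries were left out. EIF2AK2 lost it without replicate 1 of the LMO1 line (adjusted p = 0.28) or replicate 2 of the TAL1/LMO1 line (0.35), and IRF1 without replicate 2 of the LMO1 line (0.25) or replicate 1 of the TAL1/LMO1 line (0.51), and neither was called with library totals or by DESeq2. The 3 DMSO comparisons share libraries and are not independent.

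The genes of the pathway around these members were read from further lists of symbols, chosen with earlier results of these data known. Interferon genes themselves were nearly silent. IFNB1 and 12 of the 13 listed IFNA genes had 0 counts in every library, IFNA5 had 12 counts over all libraries and IFNG 3. IFNL1, a type III interferon, was tested but low: the TAL1/LMO1 line was at 0.449 and 0.644 CPM with DMSO and 0.807 and 0.983 CPM with doxycycline (adjusted p = 0.21), the TAL1 line was at 0 counts and the LMO1 line had 1 count. IFNLR1, the specific chain of its receptor, had 0 counts in every library. In the TAL1/LMO1 line, 28.5% of all tested genes rose and 31.7% fell, which is the background for each list below. Of the 5 tested receptor genes, 3 rose and 1 fell: IFNAR1 by 0.28 (SE 0.06), IFNAR2 by 0.49 (SE 0.06), and IL10RB, which serves type III interferon and interleukin receptors, by 0.82 (SE 0.07). IFNGR2, a type II receptor chain, was at -0.22 and lost its call without DMSO replicate 1 (adjusted p = 0.061) or doxycycline replicate 1 (0.066) and with library totals (0.091), and IFNGR1 was not called (adjusted p = 0.16, and 0.027 with library totals).

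In the JAK-STAT list with its brakes, 8 of 10 tested genes rose and 1 fell in the TAL1/LMO1 line (80% and 10%, beside 28.5% and 31.7% of all tested genes), with a median of 0.61. JAK1 was at 181 and 176 CPM with DMSO and 366 and 385 CPM with doxycycline (log2 1.07, SE 0.05, adjusted p = 4.1e-32). STAT2 went from 64.7 and 70.7 CPM to 133 and 137 CPM (log2 0.996, SE 0.06, adjusted p = 8.5e-26). IRF9, its partner in ISGF3, rose in the same line, as given above. TYK2 rose by 0.41 and JAK2 by 0.63. The phosphatase PTPN6 (SHP-1) rose from 203 and 220 CPM to 564 and 572 CPM (log2 1.42, SE 0.05) and the feedback inhibitor SOCS1 by 0.60, while PTPN2, which dephosphorylates JAKs and STATs, fell by 0.54 on the log2 scale. In the TAL1 line, 1 of these 10 genes was called, beside 1.84% of all tested genes. This was SOCS1, at 15.7 and 13.2 CPM and then at 18.1 and 19.7 CPM (log2 0.38, SE 0.11, adjusted p = 0.034). That call was lost without DMSO replicate 2 (adjusted p = 0.54), doxycycline replicate 1 (0.066) or doxycycline replicate 2 (0.31). The authors' deposited table gives SOCS1 there at 0.38 (SE 0.17) with an adjusted p of 1. In the LMO1 line 0 of the 10 were called, beside 2.14% of all tested genes.

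**Figure D4:**
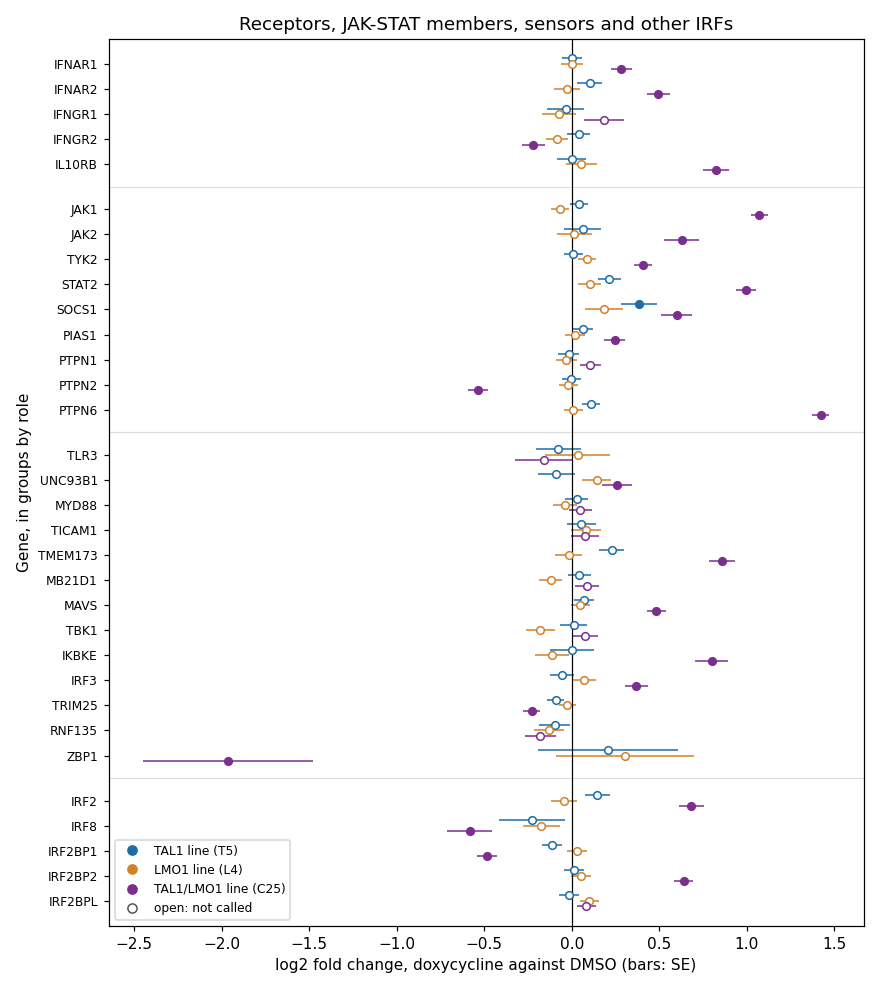
Log2 fold change with doxycycline against DMSO (horizontal axis; bars are the SE) of the plotted genes for interferon receptors, JAK-STAT signalling and its brakes, sensors and adaptors, and other interferon regulatory factors, in the 3 lines; filled points were called. TAL1/LMO1 points reach 1.42 (PTPN6) and 1.07 (JAK1) on the right and -1.96 (ZBP1) on the left, and SOCS1 in the TAL1 line is the 1 filled point of a single line.

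Of 13 tested sensors and adaptors upstream of interferon, 5 rose and 2 fell in the TAL1/LMO1 line, or 38.5% and 15.4%. The 7 called of these 13 genes are near the share called of all tested genes, 60.2%. TMEM173 (STING) was at 34.5 and 36.8 CPM and then at 60.4 and 68.9 CPM (log2 0.86, SE 0.07). The kinase IKBKE (0.80), the mitochondrial adaptor MAVS (0.48) and the transcription factor IRF3 (0.37) rose as well, and TRIM25, a ligase that acts on RIG-I, fell by 0.23 on the log2 scale. Among 5 further interferon regulatory factors and their cofactors, IRF2 (0.68) and IRF2BP2 (0.64) rose and IRF8 (-0.58) and IRF2BP1 (-0.49) fell. The 8 tested targets of type II interferon gave 1 rise and 3 falls (12.5% and 37.5%), with a median of -0.04: GBP3, a guanylate-binding GTPase, rose by 0.94 (SE 0.14), and PSMB8 (-0.45, SE 0.06), WARS (-0.40, SE 0.06) and TAP2 (-0.19, SE 0.07) fell. PSMB8 and TAP2 serve antigen processing and WARS charges tryptophan tRNA. TAP2 lost its call without doxycycline replicate 2 (adjusted p = 0.086), with library totals (0.23) and with DESeq2 (0.053). GBP3 also rose in the TAL1 line, from 11.1 and 9.25 CPM to 13.8 and 14.8 CPM (log2 0.50, SE 0.12, adjusted p = 0.016). That call was lost without DMSO replicate 2 (adjusted p = 0.39) or doxycycline replicate 2 (0.18). The authors' deposited table gives GBP3 there at 0.50 (SE 0.20) with an adjusted p of 0.95.

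A separate list of further interferon-stimulated genes moved in both directions in the TAL1/LMO1 line, with 20 of 33 tested genes higher (60.6%), 9 lower (27.3%, near the 31.7% of all tested genes) and a median of 0.32. C19orf66 (SHFL), an inhibitor of frameshifting and viral translation, rose from 30.7 and 35.5 CPM to 93.2 and 92.0 CPM (log2 1.48, SE 0.07). LY6E, a membrane-anchored protein, fell from 135 and 131 CPM to 55.5 and 55.0 CPM (log2 -1.27, SE 0.06). DDX60L, a helicase family member, fell from 138 and 133 CPM to 57.9 and 53.1 CPM (log2 -1.29, SE 0.06), and PNPT1, a mitochondrial RNA-degrading enzyme, from 85.6 and 76.4 CPM to 41.7 and 35.6 CPM (log2 -1.07, SE 0.07). In the LMO1 line 3 of the 33 were higher (9.09%) and 1, DDX60L, lower (3.03%), beside 1.18% and 0.964% of all tested genes. DDX60L was at log2 -0.25 there, and its call was lost without DMSO replicate 1 (-0.19) or doxycycline replicate 2 (-0.22). The 3 higher genes were not followed when libraries were left out. In the TAL1 line 0 of the 33 were called, beside 1.84% of all tested genes.

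Several members are neighbours on a chromosome, and neighbours did not always move together in the TAL1/LMO1 line. SAMD9 and SAMD9L on chromosome 7, MX2 and MX1 on chromosome 21, and CMPK2 and RSAD2 on chromosome 2, each with 0 protein-coding genes between them, rose as pairs. IFIT2 and IFIT3 on chromosome 10, HERC6 and HERC5 on chromosome 4, and PARP9 and DTX3L on chromosome 3 were pairs of the same kind in which 1 gene rose and the other fell. OAS3 and OAS2 on chromosome 12 gave 1 rise, of OAS2, and 1 gene that was not called. The fall of HERC5 and the rise of PARP9 are among the calls that did not hold without every library, as given above.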

How the data were processed

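RNA from 12 libraries of HPB-ALL derivatives was sequenced as strand-specific, paired reads, per the labels' protocols. Per the submitters' processing notes, the tools were STAR (2.5.2a), featureCounts and DESeq2 (1.12.4), with hg19 as the build. The authors deposited raw counts per gene, with no normalization; the sources used here do not state whether reads or pairs were counted, or the strand setting. The authors also deposited a DESeq2 table per line, which holds, per the file headers, the log2 fold change and SE, the Wald score, raw and adjusted p-value, and a signal (the normalised count averaged over libraries).

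Everything else was computed from the counts. The 16287 genes kept by filterByExpr were fitted with 1 mean per group in edgeR 4.0.16 (R 4.3.3, trimmed-mean scaling, robust quasi-likelihood F test, two-sided). The 6 residual degrees of freedom were supplemented by a median of 66.0 prior ones, so the spread was largely pooled over genes. In each of 9 comparisons p-values were adjusted by Benjamini-Hochberg over all tested genes, and a gene was called under 0.05. Log2 fold changes use a prior count of 0.125. The SE is the size of the change over the square root of F, or the counting error where larger. Nothing says that replicates were separate cultures, so the p-values cover only the library-to-library spread, which may be technical. Replicates of every group differed by more than sampling noise. Over 9638 genes, deviations of same-numbered libraries correlated at -0.11 to 0.19 across the 15 pairs of groups (-0.04 to 0.10 within a line). Not every pair was over 0.1, so the numbers were not taken to pair libraries.

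Alternatives were DESeq2 1.42.0, its size factors in edgeR, library totals, no filter, a replicate block, each line alone and leaving out each library. The procedure was tested on simulated data. Members and lists were chosen with earlier results of these data known. Named in full were the 25 members with the smallest p over the doxycycline comparisons, the ISG15 system and the interferon regulatory factors; up to 5 called members per direction in the other comparisons; and from each pathway list IFNAR1, IFNAR2, JAK1, TYK2, STAT2 and IRF3 with up to 4 further genes of smallest p. 1 gene that this rule takes, though counted in its list, is not reported here. The other members, and pathway genes named for being silent or called in a single line, were named after their values were seen. Promoters are from RefSeq (GRCh38.p14), another build than the counts, and 8 members had none.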

Additional observations from a re-analysis of the deposited data

Results flagged for a closer look

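The members below were picked out because the test of the difference between lines itself was called, and for each named gene the value is the difference of log2 fold changes. Comparing the response of the TAL1/LMO1 line with that of the TAL1 line, the differences upward were EPSTI1 at 5.55, XAF1 at 1.54, IFI35 at 1.33, DDX58 at 0.82 and SAMD9 at 0.79. Downward they were USP18 at -1.60, IFIT3 at -0.82, EIF2AK2 at -0.55, DTX3L at -0.35 and IFI16 at -0.29. Comparing it with that of the LMO1 line, they were EPSTI1 at 4.47, RSAD2 at 2.39, IRF7 at 1.33, DDX58 at 0.84 and SAMD9 at 0.68 upward, and USP18 at -1.78, IFIT3 at -1.21, EIF2AK2 at -0.58, IFI16 at -0.57 and DTX3L at -0.47 downward. The response of the TAL1 line was below that of the LMO1 line for EPSTI1, at -1.08, and for IFI16, at -0.28. These genes were taken by the smallest p in each direction, and the comparisons share libraries.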

How the results depend on the processing

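No called direction of a named gene reversed under any alternative that was run. In the TAL1/LMO1 line the counts of members called were 20 higher and 10 lower; library totals gave 22 and 7, DESeq2 gave 19 and 8, and leaving out single libraries gave 18 to 20 and 9 to 10. The small counts moved more. For the TAL1 line, 1 member (SAMD9L) was called higher with library totals, with the replicate block and with the 4 libraries of the line alone, against 0. For the LMO1 line, 1 was called higher by DESeq2, which gave 12 members an adjusted p there, and 1 to 4 without single libraries, against 3. The difference between the TAL1 and LMO1 responses was called lower for 0 to 3 members without single libraries, against 2. With DMSO, the TAL1/LMO1 line was above the TAL1 line for 1 member by DESeq2 and 0 to 3 without single libraries, against 4, and below the LMO1 line for 3 members with library totals and 3 by DESeq2, against 5. The TAL1 line was below the LMO1 line for 1 to 3 without single libraries, against 3. The cause of these shifts was not tested. With the replicate block the TAL1/LMO1 counts were 20 and 10, the LMO1 line gained DTX3L (adjusted p = 0.034), and besides it and SAMD9L in the TAL1 line (0.048) no call of a named member under doxycycline changed; libraries share only a number. Library totals moved the median log2 fold change of all genes in the TAL1/LMO1 line from -0.01 to 0.09. Depth limits OAS1, OASL, IFI44L and TRIM22, and IFIT1 in the LMO1 and TAL1/LMO1 lines, which were at or near the limit that a count of 0 allows. Few counts in the LMO1 line also limit the sizes of the DMSO differences of XAF1 and IFI44 from that line.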
